A study of Homo sapiens with 6 samples.

Results

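The genes described here control the G1 phase of the cell cycle. They are the D-type cyclin genes CCND2 and CCND3, the cyclin-dependent kinase genes CDK4, CDK6 and CDK2, the phosphatase gene CDC25A, and the inhibitor genes CDKN1B, CDKN2A, CDKN2C and CDKN2D. They were chosen by gene name, and all 10 were found among the 34675 genes of the table. Gene expression was measured by RNA sequencing in U2932, an established human diffuse large B cell lymphoma line. Cells were infected with the hairpin TRCN0000358536 against PRDM11, a PR domain regulator of transcription, or with the pLKO-puro-scramble hairpin (3 samples each). Both groups were selected with puromycin for 3 days, and depletion rested on that hairpin construct alone. The values came as 1 comparison between conditions called A and B, and no source used here says which hairpin either one received. Differences are therefore given as condition A over condition B, and libraries are called A libraries and B libraries. In RNA of whole cultures, fewer cells that express a gene and less RNA per cell cannot be told apart.

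In G1, cyclins D2 and D3 activate CDK4 and CDK6, which phosphorylate the retinoblastoma protein and release E2F transcription factors. Cyclin E with CDK2 then carries cells into S phase, and CDC25A removes the inhibitory phosphates from CDK2. INK4 inhibitors bind CDK4 and CDK6, and p27, encoded by CDKN1B, binds cyclin E and CDK2 complexes. Normal germinal centre B cells depend on cyclin D3, and loss of the CDKN2A locus is frequent in diffuse large B cell lymphoma.

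Whole reads of 3 libraries per condition were recovered from the deposited means for all 10 genes. The libraries are numbered 1 to 3 from the largest size factor to the smallest, which ties none of them to a labelled replicate. For CCND3, CDK6, CDC25A, CDKN2A and CDKN2C, 5 of the 10, the condition A mean allowed several sets of reads. The set taken was the single one with every library at 0.6 to 1.5 times the mean, so the library values and limma results of these 5 genes rest on that choice, while their means do not. The recovered reads came to between 19414720 and 30056879 a library. Libraries 1 and 3 of condition A and library 1 of condition B lay farthest from their partners, with a median absolute gap of 0.15, 0.18 and 0.15 on the log2 scale over 11381 genes, against 0.06 to 0.09 in the others. PRDM11, the targeted gene, had 268, 272 and 323 normalised reads in the A libraries, against 565, 516 and 545 in the B libraries. The B cell markers MS4A1, CD79A, CD79B, PAX5 and CD22 were present at means of 16908 to 77769, and of these 5 CD79B was called, higher in condition A. Of 6 T and NK cell markers 3 were in the table, led by CD3E with 14.1 normalised reads in the A libraries, against 7.82 in the B libraries. Of 6 myeloid markers 4 were, with sums of 65.9 in the A libraries, against 52.8 in the B libraries. Of 6 epithelial and stromal markers 5 were, with sums of 1351 in the A libraries, against 1323 in the B libraries, nearly all from EPCAM. None of these was called, and CD3D, CD2, KLRD1, S100A8, S100A9 and PECAM1 had no row. The part of other cells in the results was not tested. No label states that the samples were separate cultures, so p-values reflect only how these samples vary, and that variation may be technical.

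CCND3 was the 1 gene of the 10 that passed the threshold, and it was lower in condition A. It had 9323, 9400 and 10764 normalised reads in the A libraries, against 14684, 13070 and 12607 in the B libraries. Every library of condition A lay below every library of condition B. The means were 9829 ± 811 in the A libraries, against 13453 ± 1091 in the B libraries (SD, n = 3 each), and the A mean was 0.731 times the B mean. The log2 ratio in the authors' deposited table, with its sign turned, was -0.45, and the deposited p implies a standard error near 0.11 (DESeq adjusted p = 0.00316). A limma fit to the recovered reads gave a 95% interval of -0.64 to -0.26 for the difference (limma adjusted p = 0.0128). The limma adjusted p was 0.0771 without library 2 of condition A and 0.0596 without library 2 of condition B, and the log2 ratio of the means lay between -0.52 and -0.39 with any 1 library left out. An exact permutation test over libraries gave p = 0.1 for CCND3, the smallest that 3 against 3 libraries allow.

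The share of genes called sets the scale for this count. Calls at an adjusted p under 0.05 made up 2.54% of all 34675 genes in the authors' deposited table, and calls lower in condition A made up 1.57%. The share called was 6.04% over the 13565 genes whose mean reached 50. Of the 10 genes, 9 had a mean of at least 50, and 1 of these was called. CCND3 was again the 1 gene called when the deposited p was adjusted over genes whose mean reached 10, where 6.68% of genes were called, or 50, where 8.7% were. The median log2 ratio of those 9 was 0.08, and that of all genes with such a mean was 0.00. Read against these shares, 1 call among 9 genes is no result about the group as a whole.

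**Figure D1:**
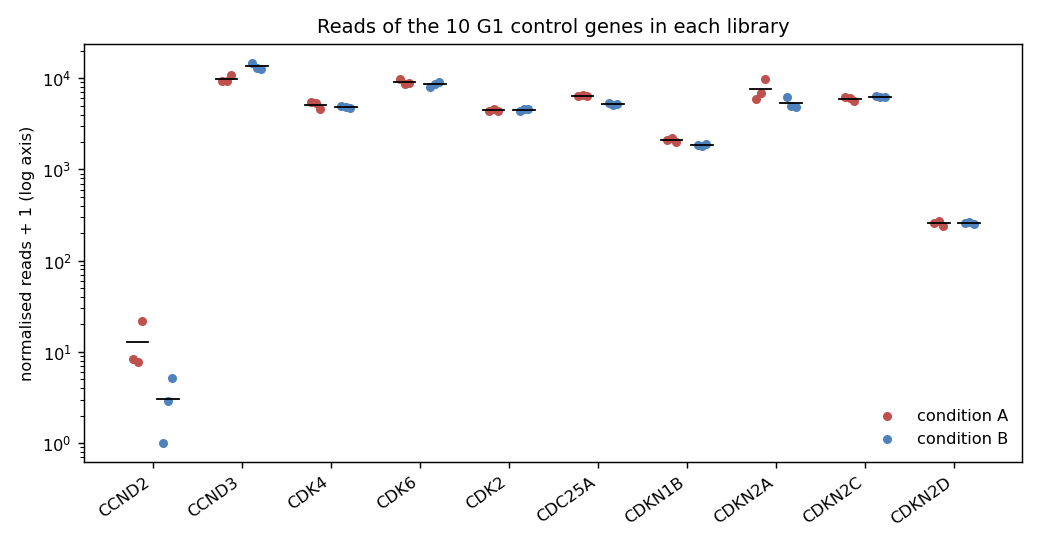
Normalised reads plus 1 on a log axis for the 10 genes in each recovered library, condition A left of condition B. Points are libraries and bars are means of 3. CCND2 lies far below the other 9, and CCND3 is the gene whose condition A libraries all lie below those of condition B.

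CCND3 (ENSG00000112576) is coded on the minus strand of chromosome 6, in 6 blocks between 41903592 and 41909387 (hg19). A promoter window is shown because CCND3 is the called gene. A single RefSeq window was taken per gene, here chr6:42048639-42048938 on the minus strand of GRCh38.p14. It runs from 250 bases before to 50 bases after an annotated start that lies well away from the coding blocks. Other starts of CCND3 were not searched, and which start its transcripts used was not tested. The window is printed with no part in capitals, since it holds no match to the E2F motif searched.

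CCND3 promoter: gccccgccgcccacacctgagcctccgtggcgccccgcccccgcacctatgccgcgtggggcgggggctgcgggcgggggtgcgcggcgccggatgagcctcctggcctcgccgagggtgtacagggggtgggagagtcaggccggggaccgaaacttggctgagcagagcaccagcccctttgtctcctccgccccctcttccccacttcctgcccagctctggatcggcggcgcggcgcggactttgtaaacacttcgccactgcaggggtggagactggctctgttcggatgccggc

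This window has 29 CG dinucleotides and a GC content of 72.3%, against medians of 14 and 58.7% over 35116 RefSeq promoters of the same length. The motif searched was TTTCGCGC, TTTGGCGC, TTTCCCGC or TTTGCCGC on both strands, forms of the site that E2F factors bind. It was present in 3.31% of those promoters. RefSeq gave a promoter window for 8 of the 10 genes, all but CCND2 and CDK2. Among these 8 windows that of CDC25A alone held a match, and other starts of the genes were not searched. A match is only a match of letters, and its absence says nothing about binding.

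CCND2, the other D-type cyclin gene of the 10, was close to absent. The A libraries held 9, 7 and 16 reads, against 0, 2 and 4 in the B libraries. All 3 libraries of condition A lay above those of condition B, but the sums were 32 reads (95% Poisson interval 21.9 to 45.2) in condition A and 6 reads (2.20 to 13.1) in condition B. The ratio of summed reads, corrected for size factors, was 5.49 with an exact binomial counting interval of 2.27 to 16.1, which covers counting error only. The log2 ratio of the means was 2.52, and it became 1.81 when library A3 was left out, 1.94 when B1 was and 3.62 when B3 was. In the authors' deposited table the DESeq adjusted p was 0.445, so CCND2 was not called. In GENCODE 29 AC008012.1 covers 13.8% of its exon bases on the same strand. Per kilobase of exon it made up 0.0934% ± 0.0548 of D-type cyclin reads of these genes in condition A and 0.0130% ± 0.0136 in condition B (SD, n = 3 each), and the exact two-sided permutation test gave p = 0.1 (0.2 adjusted over the 2 shares tested). CCND1, the remaining D-type cyclin gene, which was named after its values were seen, had 26.5 normalised reads in the A libraries, against 23.8 in the B libraries (DESeq adjusted p = 1). CCND3 therefore held nearly all D-type cyclin reads in both conditions.

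The kinase genes were not called. CDK4, a kinase that pairs with D-type cyclins, had 5426, 5309 and 4551 normalised reads in the A libraries, against 4936, 4819 and 4718 in the B libraries. CDK6, its close relative, had 9768, 8701 and 8916 in the A libraries, against 7954, 8684 and 9136 in the B libraries. CDK2, the partner of cyclins E and A, had 4385, 4565 and 4356 in the A libraries, against 4341, 4558 and 4641 in the B libraries. The libraries of the conditions overlapped for each of these 3 genes.

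The deposited log2 ratios of the kinase genes, with the sign turned, were 0.08 for CDK4, 0.09 for CDK6 and -0.03 for CDK2 (DESeq adjusted p = 1 for each). The limma 95% intervals were -0.11 to 0.26 for CDK4, -0.09 to 0.27 for CDK6 and -0.18 to 0.13 for CDK2. These intervals bound how large a difference the 6 libraries leave possible, and they do not show equality. CDK4 shares 43.2% of its exon bases with TSPAN31 on the opposite strand in GENCODE 29. TSPAN31 had 1254 normalised reads in the A libraries, against 825.3 in the B libraries, and the authors' deposited table called it higher in condition A (DESeq adjusted p = 0.00473). Whether counting used strand, and how reads in the shared stretch were assigned, is not given in the sources used here. The CDK4 values may therefore include reads of TSPAN31 or lack reads from that stretch. This also bears on the level of CDK4 per kilobase and on its share beside CDK6. CDK2 shares 14.5% of its exon bases with the antisense gene AC025162.1.

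**Figure D2:**
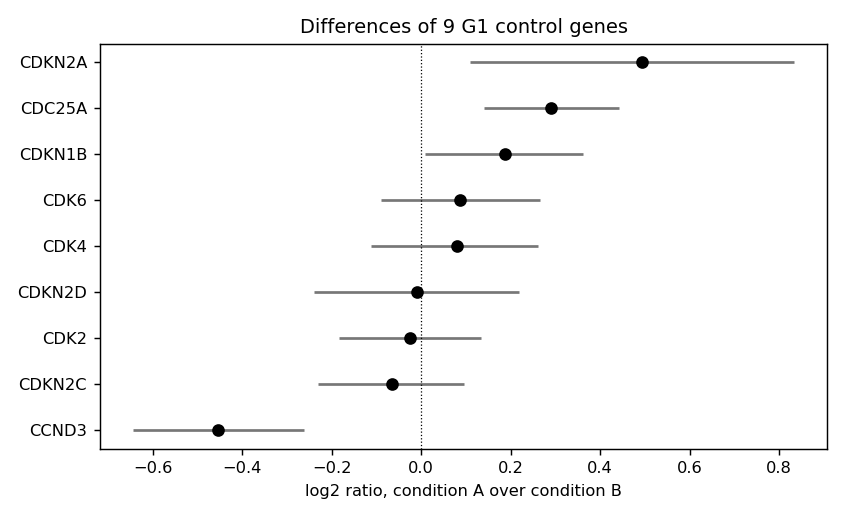
Log2 ratio of condition A over condition B for the 9 genes with a mean of at least 10. Points are ratios of the deposited means and lines are 95% intervals of a limma fit to the recovered reads, not adjusted for the number of genes. CCND3 lies left of 0 at -0.45 and CDKN2A has the widest interval, 0.11 to 0.83.

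CDC25A, the phosphatase that activates CDK2, had every A library above every B library but was not called in the authors' deposited table. It had 6353, 6496 and 6364 normalised reads in the A libraries, against 5391, 5109 and 5212 in the B libraries. The libraries did not overlap, and their spread was small, with means of 6404 ± 79.7 in the A libraries, against 5237 ± 143 in the B libraries (SD, n = 3 each). The log2 ratio was 0.29 and its implied standard error 0.12 (DESeq adjusted p = 0.228). The limma fit put it past the threshold, with an interval of 0.14 to 0.44 (limma adjusted p = 0.0282), where 9.19% of 16837 genes were called. It was again not called by limma without library 2 of condition A, or without library 2 or 3 of condition B, with limma adjusted p of 0.141, 0.14 and 0.136.

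The CDC25A promoter is shown for the single E2F motif match among the 8 promoter windows searched. The window, chr3:48188368-48188667 on the minus strand of GRCh38.p14 (RefSeq), covers the same distances as that of CCND3, and capitals mark the match, which begins 44 bases before the start.

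CDC25A promoter: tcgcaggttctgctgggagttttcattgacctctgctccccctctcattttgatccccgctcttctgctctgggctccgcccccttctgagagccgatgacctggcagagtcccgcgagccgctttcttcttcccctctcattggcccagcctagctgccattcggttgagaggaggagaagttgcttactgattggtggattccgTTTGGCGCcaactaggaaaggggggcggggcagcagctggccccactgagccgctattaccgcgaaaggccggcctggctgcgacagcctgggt

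CDC25A (ENSG00000164045) is coded in 15 blocks between 48200438 and 48229437 of chromosome 3 (hg19). CDC25B, a relative that acts later in the cycle, had 8336 normalised reads in the A libraries, against 6733 in the B libraries, a log2 ratio of 0.31 (DESeq adjusted p = 0.241). It was named after its values were seen.

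CDKN1B, which encodes p27, also had values in condition A above those in condition B without being called. It had 2112, 2235 and 1982 normalised reads in the A libraries, against 1840, 1816 and 1904 in the B libraries. The libraries did not overlap, and the means were 2110 ± 127 in the A libraries, against 1853 ± 45.3 in the B libraries (SD, n = 3 each). The log2 ratio was 0.19 and its implied standard error 0.11 (DESeq adjusted p = 0.723; limma adjusted p = 0.167). Non-overlap alone is common in these data: it held for 34.5% of the 12789 genes whose mean reached 50, and for 3 of the 9 genes described here with such a mean, CCND3, CDC25A and CDKN1B.

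CDKN2A was expressed at a high level and had the widest spread of the 9 genes with a mean of at least 50. It encodes p16, an INK4 inhibitor, and ARF, a protein read in another frame that stabilises p53. It had 5985, 6858 and 9742 normalised reads in the A libraries, against 6263, 4953 and 4836 in the B libraries. Library 3 of condition A was the highest, and library 1 of condition A lay below library 1 of condition B, so the conditions overlapped. The means were 7528 ± 1966 in the A libraries, against 5351 ± 792 in the B libraries (SD, n = 3 each).

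The log2 ratio of CDKN2A was 0.49, larger in size than that of CCND3, but its implied standard error was 0.32 (DESeq adjusted p = 0.783; limma adjusted p = 0.0976). Without library 3 of condition A the ratio of the means was 0.26 on the log2 scale, and without library 1 of condition A it was 0.63 and the limma adjusted p was 0.0255. The coefficient of variation was 26.1% in the A libraries, against 14.8% in the B libraries. Over 6281 genes with means of 1000 to 10000 the median was 7.86% in the A libraries, against 6.27% in the B libraries. The spread of CDKN2A in condition A exceeded that of 98.5% of these genes. That spread rests on the choice among several sets of reads described above, which limits how far a library can lie from the mean.

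**Figure D3:**
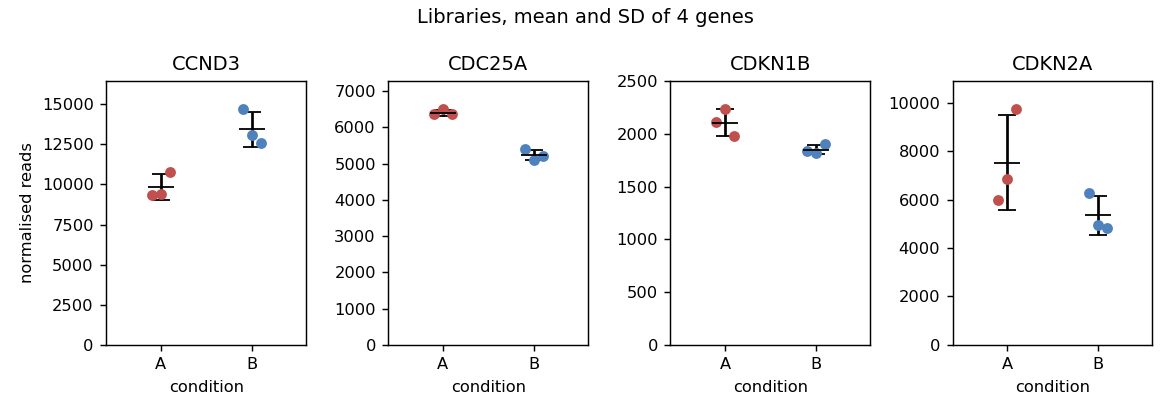
Normalised reads of CCND3, CDC25A, CDKN1B and CDKN2A in each library, condition A left of condition B, on linear axes from 0. Points are libraries, and dashes with bars are the mean and SD of 3. The conditions do not overlap for CCND3, CDC25A and CDKN1B, and they overlap for CDKN2A, where library 3 of condition A reaches 9742.

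CDKN2A (ENSG00000147889) has 6 coding blocks on chromosome 9 between 21968211 and 21994453 in build hg19. The block from 21994138 to 21994453 holds the first exon of ARF, the block from 21974479 to 21974826 that of p16, and the block from 21970893 to 21971207 the exon that both share. Reads were given per gene, so transcripts of p16 and ARF cannot be told apart. The promoter window searched for CDKN2A, chr9:21995275-21995574 in GRCh38.p14, did not cover the first exon of p16. The neighbouring genes on chromosome 9 were expressed too. MTAP, which salvages methionine, had 2450 normalised reads in the A libraries, against 2691 in the B libraries. CDKN2B, which encodes the INK4 inhibitor p15, had 674.7 in the A libraries, against 603.4 in the B libraries. CDKN2B-AS1, a noncoding RNA that overlaps 7.88% of CDKN2A's exon bases on the opposite strand, had 120 in the A libraries, against 98.5 in the B libraries. None of these 3 was called (DESeq adjusted p of 1, 1 and 0.91), and DMRTA1 and ELAVL2 had means of at most 3.55 in either condition.

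The other INK4 genes were not called. CDKN2C, which encodes p18, an inhibitor linked to the exit of B cells into plasma cells, had 6287, 6000 and 5606 normalised reads in the A libraries, against 6397, 6151 and 6180 in the B libraries. CDKN2D, which encodes p19, had 255, 274 and 239 in the A libraries, against 257, 263 and 253 in the B libraries. Both sets of libraries overlapped. The log2 ratios were -0.07 for CDKN2C and -0.01 for CDKN2D (DESeq adjusted p = 1 for each), with limma 95% intervals of -0.23 to 0.10 for CDKN2C and -0.24 to 0.22 for CDKN2D. Among reads of these 3 INK4 genes per exon length, CDKN2A held 46.4% ± 7.62 in the A libraries, against 37.5% ± 2.92 in the B libraries (SD, n = 3 each). Its share was 40.1%, 44.3% and 54.9% in the A libraries, against 40.8%, 36.1% and 35.5% in the B libraries, which overlap.

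Levels of different genes were compared as normalised reads per kilobase of exon (union of GENCODE 29 exons), averaged over both conditions. The notes name hg19 and no annotation for the deposited reads. These lengths, and the overlaps between genes given above, may therefore differ from those that applied in counting. CCND3 stood at 2006, CDKN2C at 1839, CDK4 at 1566, CDKN2A at 1488, CDC25A at 1414 and CDK2 at 1149. CDK6 followed at 723, CDKN1B at 705, CDKN2D at 171 and CCND2 at 0.96. Neighbours overlapped in their library ranges from CCND3 down to CDC25A, and CDK6 overlapped with CDKN1B. Compared within each of the 6 libraries, CCND3 lay above CDKN2C in 4 and CDKN2C above CDK4 in 6. CDK4 lay above CDKN2A in 5, CDKN2A above CDC25A in 3 and CDK6 above CDKN1B in 4. The ranges did not overlap between CDC25A and CDK2, CDK2 and CDK6, CDKN1B and CDKN2D, or CDKN2D and CCND2. The upper part of the order differed between conditions. By the means of the A libraries CDKN2C stood first at 1798, ahead of CDKN2A at 1739 and CCND3 at 1694. That place of CDKN2A rested on library 3 of condition A, at 2250. In libraries 1 and 2 it stood at 1382 and 1584, below CDKN2C, CDK4 and CCND3 in each. In library 3 CCND3 at 1855 was above CDKN2C at 1690. In the B libraries CCND3 stood first at 2319, ahead of CDKN2C at 1881, and CDKN2A at 1236 came below CDC25A at 1272.

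This order depends on the length used, and CDK6 moved most. With the reads of the whole gene divided by coding length, CDKN2C stood at 12110, CCND3 at 11357 and CDK6 at 9059. CDKN2A at 5786 and CDK4 at 5010 came after them. Reads within coding sequence alone were not available, so this measure raises genes with long exons outside it. CDK6 has 12260 exon bases, of which coding intervals cover 978, against 3168 and 990 for CDK4. CDK6 made up 31.7% ± 1.93 of CDK4 and CDK6 reads in the A libraries, against 31.5% ± 1.99 in the B libraries, per exon length (SD, n = 3 each). Per coding length the shares were 64.5% ± 2.04 in the A libraries, against 64.3% ± 2.13 in the B libraries. The exact two-sided permutation test gave p = 0.8 for the difference between conditions by either length (0.8 adjusted over the 2 shares). Which of the 2 kinase genes had more transcripts is therefore not settled by these values.

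**Figure D4:**
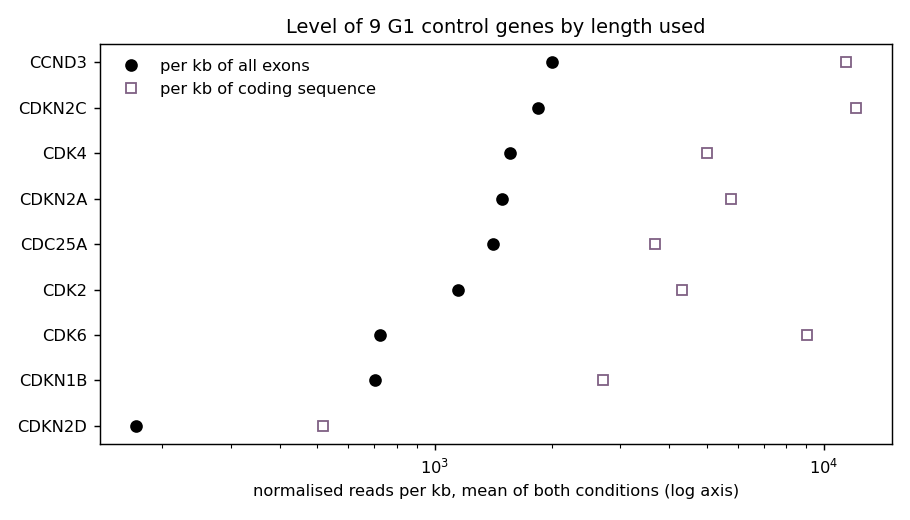
Level of 9 genes, all but CCND2, as normalised reads per kilobase averaged over both conditions on a log axis. Filled circles use the union of exons and open squares the coding length. Both use the reads of the whole gene. CDK6 stands at 723 by exons and 9059 by coding length, the widest gap of the 9.

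Ratios of reads between partners within a library describe RNA only, not the balance of the proteins. Those over CDK4 and CDK6 also carry the limit from the exon bases that CDK4 shares with TSPAN31. D-type cyclin reads over CDK4 and CDK6 reads, per exon length, were 0.641, 0.680 and 0.859 in the A libraries, against 1.15, 1.01 and 0.973 in the B libraries. The libraries did not overlap, and CCND3 supplied nearly all of the numerator. CDKN1B over CDK2 was 0.667, 0.678 and 0.630 in the A libraries, against 0.587, 0.552 and 0.568 in the B libraries, again without overlap. INK4 reads over CDK4 and CDK6 reads ran between 1.37 and 1.89 in the A libraries and between 1.41 and 1.61 in the B libraries, which overlap. The 2 ratios without overlap have CCND3 and CDKN1B in their numerators, genes whose own libraries did not overlap, so they add nothing independent. Non-overlap held for 34.5% of single genes whose mean reached 50, and its share among such ratios was not computed. These ratios are descriptions and were not tested.

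Other genes of the G1 pathway were taken from a list of 53, all in the table, sorted by role. The authors' deposited table called 2 of them higher in condition A and 1 lower, beside 2.54% called over all genes and 6.04% where the mean reached 50. Among the 50 with such a mean the median log2 ratio was 0.04, with 27 above 0 and 23 below. Set against 6.04%, 3 calls among these 50 genes are no result about the list as a whole. All 3 called genes encode E2F factors, while E2F1, E2F3, E2F4, E2F6 and E2F8 of the same list were not called. E2F2 and E2F5 bind proteins of the retinoblastoma family, and E2F7 is an atypical member that does not.

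E2F2, an activating E2F, had 10523 normalised reads in the A libraries, against 8010 in the B libraries, a log2 ratio of 0.39 (DESeq adjusted p = 0.0398). E2F7, a repressor of E2F target genes, had 1731 in the A libraries, against 1265 in the B libraries, a log2 ratio of 0.45 (DESeq adjusted p = 0.0114). E2F5, a factor that acts with the pocket proteins in repression, was lower, with 1984 in the A libraries, against 2579 in the B libraries, a log2 ratio of -0.38 (DESeq adjusted p = 0.0468). The libraries of the conditions did not overlap for any of the 3, as for 34.5% of the 12789 genes whose mean reached 50. The 3 were named because they were called, so this adds no support to the calls. By limma, E2F2, E2F5 and E2F7 were called with all libraries, and none of them without library 2 of condition A (limma adjusted p from 0.0647 to 0.0886). Without library 2 of condition B E2F7 alone was called, and without library 3 of condition B none was.

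The role groups other than the pocket proteins and E2F factors held no call. Among 5 G1 and S phase cyclins CCNA2, the S phase cyclin, had 11757 normalised reads in the A libraries, against 10912 in the B libraries. Among the 3 genes of the CDK-activating kinase CCNH, its cyclin, had 2904 in the A libraries, against 3091 in the B libraries, and all 3 log2 ratios lay between -0.36 and -0.09. CDKN1A, which encodes the inhibitor p21, had 4296 in the A libraries, against 4770 in the B libraries.

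Among 6 genes of CDK phosphorylation WEE1, which inhibits CDKs, had 7686 in the A libraries, against 9757 in the B libraries. TFDP1, the partner of E2F factors, had 19788 in the A libraries, against 18843 in the B libraries. Among 13 turnover genes CUL1, the scaffold of SCF ubiquitin ligases, had 7552 in the A libraries, against 7944 in the B libraries, and 9 of the 13 log2 ratios were below 0. CDC37, the chaperone partner of CDK4, had 10716 in the A libraries, against 9829 in the B libraries. BCL6, the germinal centre repressor, had 28073 in the A libraries, against 22813 in the B libraries. The DESeq adjusted p of these 8 genes lay between 0.164 and 1.

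The pathway genes closest to CCND3 in log2 ratio, among the 50 with a mean of at least 50, were CCNE2 at -0.46 and FBXO4 at -0.39. CCNE2 encodes a cyclin partner of CDK2. It had 1375 normalised reads in the A libraries, against 1893 in the B libraries (DESeq adjusted p = 0.146), and FBXO4, an F-box protein gene, had 283 in the A libraries, against 371.1 in the B libraries (DESeq adjusted p = 0.212). The likeness rests on 1 ratio per gene over 6 libraries, and neither gene was called in the authors' deposited table. Both were among the 7 pathway genes that limma called with all libraries, with CDK7, E2F1 and the 3 E2F genes above. That fit called 9.19% of all genes tested, and of the 7 genes 2 were higher in condition A and 5 lower. E2F1 was lower, with 5145 normalised reads in the A libraries, against 6574 in the B libraries. Its log2 ratio was -0.35 (DESeq adjusted p = 0.0637; limma adjusted p = 0.0222). CDK7 and E2F1 were named after their values were seen.

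**Figure D5:**
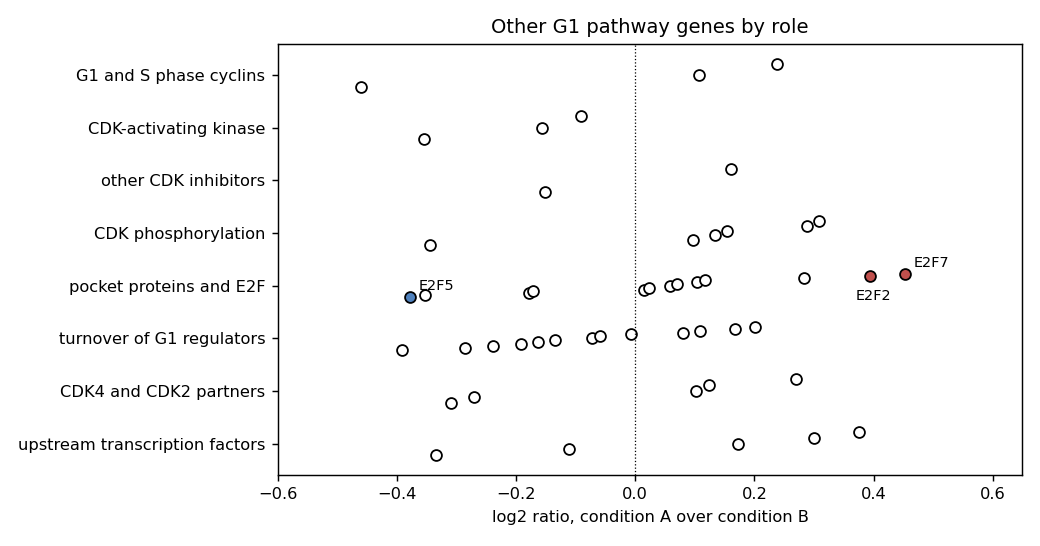
Log2 ratio of condition A over condition B for the 50 pathway genes with a mean of at least 50, by role. Filled points passed an adjusted p of 0.05 in the deposited table. The called genes are E2F2 and E2F7 right of 0 and E2F5 left of 0, and all ratios lie between -0.46 and 0.45.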

How the data were processed

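The submitters' processing notes name STAR, HTSeq 0.5.4p5, DESeq 1.14.0 and hg19. Their roles, the annotation and the strand setting are not stated in what was used here. Per the file headers, the authors' table holds means as a signal in normalised reads (read counts over size factors), a fold and a log2 ratio of condition B over A, and p-values, as deposited. Adjusting the deposited p-values by Benjamini-Hochberg over all 34675 genes gave the deposited adjusted values again. A deposited track lists coding intervals with a score, and the score was not used.

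Whole reads per library were recovered from each 15-digit mean by searching the integers that give it, up to a mean of 16000. In condition A 33901 rows were left with 1 solution, 1340 of them only after solutions outside 0.6 to 1.5 times the mean were dropped, and the limma counts rest on that choice too. In condition B 34269 rows had 1 solution with no such limit. Rows recovered in both hold 57.0% (A) and 58.9% (B) of the summed means, so read totals fall short of the full depth. The limma fit (3.58.1 in R 4.3.3) used log2 of normalised reads plus 1 for 16837 genes with a mean of at least 10. The search and the fit were tested on simulated data. In the test of the search the spread beyond counting error was set below that of CDKN2A in condition A. The test therefore does not cover the choice of reads made for that gene. Nor does it show that the choice was right for CCND3, CDK6, CDC25A or CDKN2C. Their own spread in condition A is known only through that choice. Exact permutation tests used scipy 1.17.1.

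The design assumed either a deposited comparison or counts, and the comparison was used. The genes and lists were chosen with earlier results of these data known. All 10 genes are named, with PRDM11, called pathway genes, the member of each role group with the highest mean, neighbours of CDKN2A and the 2 pathway genes nearest to a called gene in log2 ratio. Genes named after their values were seen are marked. Protein sequences were not used here. The result of 1 marker gene is not reported here.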

Additional observations from a re-analysis of the deposited data

How the results depend on the processing

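CCND3 was the 1 gene of the 10 called in the authors' deposited table, and it stayed the 1 gene called when p was adjusted over genes with a mean of at least 10 or 50. The limma fit called 2, CCND3 and CDC25A, and also 2 when reads were scaled to read totals, an alternative added after the data were seen. With 1 library left out limma called 0 to 3 of the 10 and 0 to 10 of the pathway genes, while it called 2.19% to 13% of all genes. The 3 and the 10 came without library 1 of condition A, where the share was 13%. The call of CCND3 was lost without library 2 of either condition, where the share was 2.28% (A) and 2.19% (B). Of the 53 pathway genes 3 were called in the deposited table (2.54% of all genes), 5 with p adjusted over genes with a mean of at least 50 (8.7%), 7 by limma (9.19%) and 8 by limma on read totals (9.25%), so the share of all genes called grew too. The CDK6 share of CDK4 and CDK6 reads by coding length was 64.5% in the A libraries, against 64.3% in the B libraries, since CDK6 has long exons outside its coding sequence. Pseudocounts of 1 or 10, added to both means, cannot change the sign of a log2 ratio, and centring used a median of only -0.002. Scaling to summed means, centring and leaving out any library kept the sign of the log2 ratio for 9 of the 10 genes. The exception was CDKN2D, whose values ran from -0.07 to 0.04 and were above 0 without library 3 of condition A or library 2 of condition B. Of the 10 genes depth limits CCND2 most, with at most 16 reads in a library. No paired analysis was possible because the recovered libraries carry no replicate numbers of the labels.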
